A study of Drosophila melanogaster with 36 samples.

Results

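The change in transcript levels from 5 h to 8 h of embryonic development was described for isogenic line 58 of Drosophila melanogaster and set against the same change in the other lines of the collection. The members were chosen by their array titles: 2 arrays of line 58 embryos at 5 h (Drosophila_58A and Drosophila_58B) and 2 at 8 h (H8_58A and H8_58B), which is 4 of the 36 arrays. Isogenic lines are inbred stocks whose flies are close to genetically identical. The comparison group was the mean change of the other 8 named lines (17, 23, 75, 83, 89, Drosophila_128, Drosophila_134 and Drosophila_145, the last 3 written as in their 5 h array titles) over 31 arrays, in which line 17 had 1 array at 5 h. The title of 1 array at 5 h gave no line, so that array was used in normalisation and in no comparison. The labels name no treatment, transgene or mutation for any line, and the tissue is whole embryo. Each array carried biotin-labelled cRNA from 1 RNA sample on an Affymetrix expression array, where a probe set is the group of short probes that reports 1 transcript. The labels do not state that RNA samples A and B of a line were separate embryo collections, so p-values below measure the spread between RNA samples, which may be technical.

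Drosophila development starts on RNA that the mother loaded into the egg. As the embryo's own genome is switched on, maternal RNAs are destroyed, and a short wave of early zygotic genes drives cellularisation, when membranes enclose the nuclei at the blastoderm surface. During the following hours gastrulation, segmentation and germ band extension take place, neuroblasts and muscle precursors form, and epidermis and tracheae begin the differentiation that ends in the secretion of an apical matrix and cuticle.

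Total intensity was 189805 and 234801 on the 5 h arrays of line 58 and 190386 and 169245 on its 8 h arrays. On the arrays of the other lines it lay between 68984 and 309710 at 5 h, and the 8 h arrays spanned 46261 to 266525. Between 7414 and 7986 probe sets per array lay above the negative-control limit in line 58, against 3152 to 8128 in the other lines. The replicate arrays of line 58 were the most alike of all pairs, with r = 0.979 at 5 h and 0.976 at 8 h across 6179 measured probe sets, against 0.916 to 0.975 for the other pairs. The pair-rule list had 8 of 8 genes detected, while 0 of 26 adult midgut protease genes, 1 of 18 testis genes and 2 of 16 eggshell and yolk genes were detected, and limma called 0 genes of these 3 lists in line 58, where 1 gene, of the testis list, had an unadjusted p under 0.05. In RNA of whole embryos, more cells of a type and more RNA per cell cannot be told apart.

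The first question was where line 58 stood at each time on probe sets that change with time in the other lines. A developmental score was taken for each array as the mean log2 level of 561 probe sets that rose in the other 8 lines minus that of 481 that fell there, so line 58 had no part in choosing them. The score does not measure embryo age, and whether line 58 embryos differed in age at collection was not tested. The 5 h arrays of line 58 scored -0.146 and -0.0728, while the means of the other lines at 5 h lay between -0.736 and -0.493. The 8 h arrays of line 58 scored 0.568 and 0.718, and the other lines' means ran from -0.323 to 0.748. The other 8 lines were scored on probe sets chosen from their own values. With probe sets chosen without line Drosophila_134, that line ranked 2 at 8 h, so the order at 8 h depends on the choice. On the probe sets used here, line 58 had the highest score of the 9 lines at 5 h and the second at 8 h, after line Drosophila_134. Its score rose by 0.752 (spread 0.118, the SDs of the pairs at both times combined), the fourth largest rise when each line was left out of its own choice of probe sets; line 75 gave 0.159 and line Drosophila_134 gave 1.14.

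**Figure D1:**
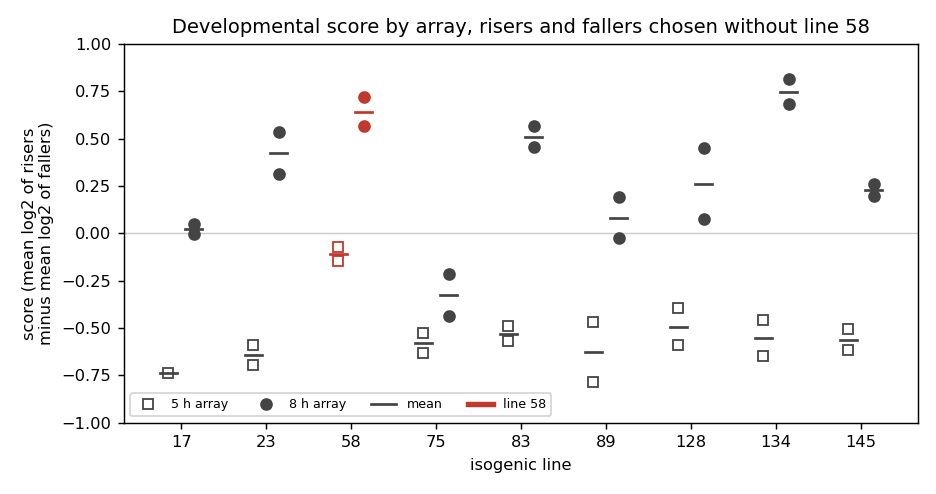
Developmental score of each array by line, on the log2 scale, with 5 h arrays as open squares, 8 h arrays as filled circles and horizontal bars at the mean of each line and time. The 5 h arrays of line 58, at -0.146 and -0.0728, lie above every other 5 h array, while its 8 h arrays, at 0.568 and 0.718, lie below the higher array of line Drosophila_134.

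Both parts of the score stood apart at 5 h. The risers averaged 4.92 in line 58 at 5 h against 4.55 to 4.68 in the other lines, and the fallers averaged 5.03 against 5.13 to 5.28. From there to 8 h, 525 of the 561 risers moved up in line 58, with a median change of 0.356, and 445 of the 481 fallers moved down, with a median of -0.277. Of these, 83 risers and 52 fallers passed the test in line 58 and 0 passed it in the opposite direction. The change in line 58 was correlated most with that in line 83 (r = 0.692) and least with that in line 75 (r = 0.284). These are correlations across 6179 probe sets on shared arrays, given as a description.

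Within line 58, limma called 290 of 18769 probe sets at an adjusted p of 0.05, which is 1.55% of those tested: 194 were higher at 8 h (1.03%) and 96 lower (0.511%). The split was 73 higher and 60 lower on the deposited scale, and 78 higher and 82 lower when arrays were centred on their medians. Every change below is on the log2(intensity + 16) scale, ± SE, from 2 arrays at each time, and the spread was estimated over all 18 groups of line and time. Intensities are quantile normalised. Of the 290, 55 changed by at least 1 on that scale, and 178 were also called in the same direction in the mean of the other lines, in which 12.3% of probe sets were called. At the level of genes, with a gene given by its probe set of highest mean, 156 of 11982 rose (1.3%) and 81 fell (0.676%). All of these were among the 6367 detected genes. At an unadjusted p under 0.05, limma gave 1624 of the 18769 probe sets in line 58, rises and falls together. Without the first 5 h array the 290 calls became 25, without the second 8 h array 20, without the second 5 h array 76 and without the first 8 h array 148.

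The largest rises in genes with a symbol were in CG10591 and CG9184, which stood low in the other lines at both times. CG10591 read 14.6 and 36.9 at 5 h and 117 and 141 at 8 h, a rise of 1.84 ± 0.26 (limma adjusted p = 0.00012). CG9184 read 58.9 and 143 at 5 h and 250 and 400 at 8 h, a rise of 1.61 ± 0.41 (adjusted p = 0.036). The 5 h and 8 h arrays did not overlap in either gene, as was so for 48.2% of all genes in line 58, and the line means elsewhere did not exceed 13.8 for CG10591 or 27.9 for CG9184. Rises were also called for tna (1.33 ± 0.24), a SUMO ligase-like partner of trithorax group proteins, for the heat shock gene Hsp68 (1.24 ± 0.31) and for ImpL2 (1.20 ± 0.27), whose product binds insulin-like peptides. The largest falls were in slam (-1.87 ± 0.28), Z600 (-1.85 ± 0.28) and bard (-1.64 ± 0.17) of the early zygotic list and in the maternal transcript me31B (-1.57 ± 0.25).

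The change in line 58 was then compared with the mean change of the other 8 lines. The difference was called for 40 of 18769 probe sets (0.213%), 38 of them in the upward direction (0.202%) and 2 downward (0.0107%); at an unadjusted p of 0.05 the numbers were 493 and 315. In genes the difference was called upward for 34 of 11982 (0.284%) and downward for 2 (0.0167%). Of the 40, 23 moved more in line 58 than elsewhere, 4 moved less, and 13 had the opposite sign, both changes being called in 1 of these 13. In the mean of the other lines 7 of the 40 were called, and for 37 the change in line 58 lay outside the range of the other 8 lines' changes. The 38 upward differences were made of 34 probe sets that rose in line 58 and 4 with a smaller negative change there. The count of 40 rested on few arrays and on the pseudocount: it was 4 without the first 5 h array, 1 without the second 8 h array, 1 with a pseudocount of 4 in place of 16, and 9 when the 8 other lines were treated as the replicates. All 40 kept their direction in each of these fits.

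**Figure D2:**
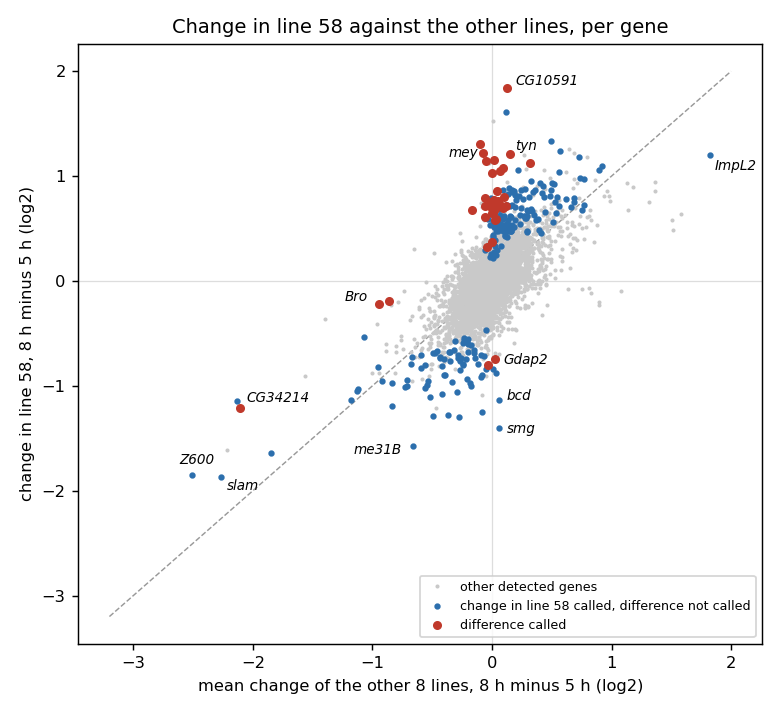
Change from 5 h to 8 h in line 58 (vertical) against the mean change of the other 8 lines (horizontal), both log2, for each detected gene, with the dashed line where both are equal. Genes whose difference was called (red) lie mostly in a column near 0 on the horizontal axis and between 0.33 and 1.84 on the vertical one, such as CG10591 and mey, while CG34214 and Bro lie above the dashed line among the falling genes.

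The 34 probe sets that rose more in line 58 were dim. Their median intensities in line 58 were 3.91 and 5.37 on the 5 h arrays and 16.0 and 23.5 on the 8 h arrays, while over the other lines the medians were 2.05 at 5 h and 2.23 at 8 h. In 27 of the 34 both 5 h arrays lay under the pseudocount of 16, so the fitted changes understate the ratios. Line 58 had the highest 8 h mean of the 9 lines in 34 of 34 and the highest 5 h mean in 23 of 34. Over all genes the shares were 11.0% and 10.0%, and over detected genes 17.1% and 14.6%, but choosing probe sets that rose more in line 58 favours a high 8 h rank, so nothing is read from these counts. Line 83 came next at 8 h in 24 of the 34. The second array of line 58 was the higher one in 29 of 34 at 5 h and in 33 of 34 at 8 h, and the part of this array-to-array shift in the result was not tested.

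Genes of the apical extracellular matrix of the epidermis were among those with the largest differences. The mey gene, which encodes a zona pellucida (ZP) domain protein of the matrix that shapes epidermal denticles, read 1.44 and 17.8 at 5 h and 31.3 and 44.7 at 8 h. Its 5 h arrays were far apart but both lay below the 8 h arrays. The change was 1.14 ± 0.18 in line 58 and -0.05 in the mean of the other lines, whose own changes ran from -0.24 to 0.11, and the difference was 1.19 ± 0.19 (limma adjusted p = 0.0014). For tyn, of the same family, the intensities were 7.29 and 26.4 at 5 h and 53.7 and 59.9 at 8 h, with no overlap, and the difference was 1.06 ± 0.23 (adjusted p = 0.039). For neo, a further member, they were 4.73 and 13.0 at 5 h and 20.1 and 31.8 at 8 h, and the difference was 0.71 ± 0.15 (adjusted p = 0.027). Line 58 had the highest mean of all lines for mey, tyn and neo at both times. The 10 ZP domain genes, a list made after the data were seen, had these 3 called for the difference, where 0.284% of all genes were called upward, and the list was built around them. The median difference per gene over the 10 was 0.08. The changes of dyl (0.47, adjusted p = 0.17) and dpy (0.52, adjusted p = 0.21) were not called. Without the first 5 h array the differences became 0.71 for mey, 0.63 for tyn and 0.47 for neo and none of the 3 was called.

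Chitin and cuticle genes gave smaller values of the same direction. The deacetylase gene verm, whose product modifies chitin, read 5.60 and 8.23 at 5 h and 30.4 and 33.2 at 8 h, and it rose by 1.06 ± 0.25 (limma adjusted p = 0.018). Its relative serp rose by 0.85 ± 0.23 and the chitin synthase gene kkv by 0.63 ± 0.15. None of these passed the test of the difference, with values of 0.85 ± 0.26 for verm, 0.69 ± 0.24 for serp and 0.57 ± 0.16 for kkv (adjusted p = 0.37, 0.61 and 0.26). Gasp, a chitin-binding protein of tracheae and cuticle, read 3.78 and 26.1 at 5 h and 52.4 and 48.6 at 8 h, but its change of 1.20 was not called (adjusted p = 0.27). The transcription factor gene grh, which drives epidermal barrier genes, stood just outside the threshold with a change of 0.48 (adjusted p = 0.051). Of 27 genes of epidermis and cuticle, 5 rose (mey, verm, serp, sinu and kkv) and 0 fell in line 58. Over all genes 1.3% rose, and 156 of 6367 detected genes did. The median change of the list was 0.20 against 0.05 in the other lines and 0 over all genes. Line 58 had the highest 8 h mean of the 9 lines in 12 of the 27, against 11.0% of all genes and 17.1% of detected genes. It already had the highest 5 h mean in 11 of the 27, against 10.0% and 14.6%.

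Septate junctions seal neighbouring epithelial cells. The band 4.1 protein gene cora read 5.53 and 7.96 at 5 h and 20.7 and 30.5 at 8 h, with a rise of 0.86 ± 0.15 (limma adjusted p = 0.0016), and the claudin gene sinu rose by 0.67 ± 0.15 (adjusted p = 0.015). The difference from the other lines was 0.62 for cora and 0.34 for sinu, neither of them called. In the list of 20 septate junction genes, all detected and also listed after the data were seen, 2 rose and 0 fell. Over all genes 1.3% rose, and 156 of 6367 detected genes did. Line 58 ranked first of the 9 lines in 14 of 20 at 5 h and in 14 of 20 at 8 h, against 14.6% and 17.1% of detected genes.

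**Figure D3:**
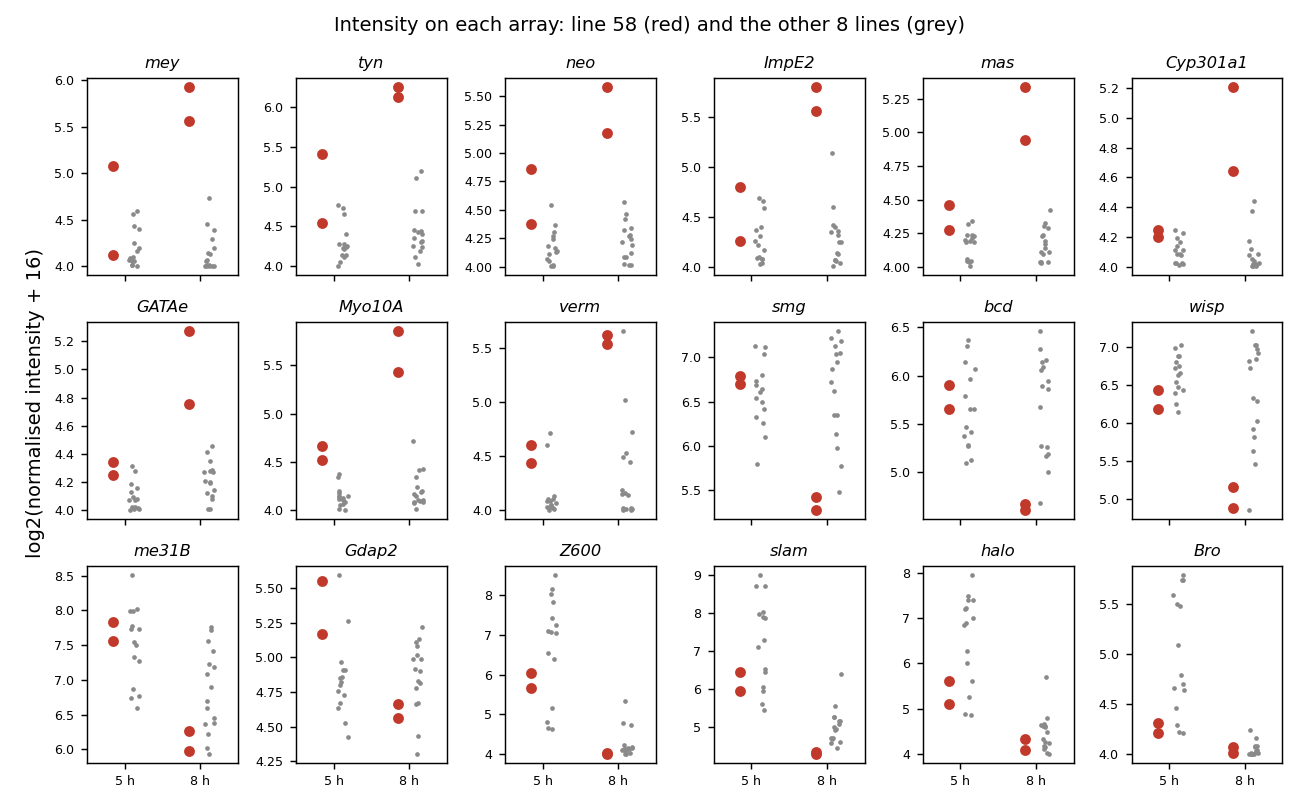
Level of 18 genes on each array as log2(normalised intensity + 16), with line 58 as large red points and arrays of the other 8 lines as small grey points, at 5 h and 8 h. For mey, tyn, neo, ImpE2 and Myo10A both 8 h arrays of line 58 lie above all others, while for smg both 8 h arrays of line 58 lie below all others.

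Beyond the matrix genes, the upward differences covered secreted proteins, enzymes and regulators of several kinds. ImpE2, found as a gene induced by the moulting hormone ecdysone in imaginal discs, read 3.13 and 11.8 at 5 h and 31.2 and 39.8 at 8 h, and the difference was 1.14 ± 0.19 (limma adjusted p = 0.0023). Myo10A, an unconventional myosin, read 6.91 and 9.39 at 5 h and 27.2 and 41.7 at 8 h, and the difference was 0.98 ± 0.14 (adjusted p = 0.00045). In both genes the 8 h arrays of line 58 were clear of the 5 h arrays and of the line means elsewhere, which reached 11.9 and 8.00. A second, dimmer probe set of Myo10A changed by -0.10 in line 58 and was not called. Of the 19 named genes with a called difference, 1, Myo10A, was still called without the first 5 h array, and 0 were called without the second 8 h array, where Myo10A gave 0.77 (adjusted p = 0.1).

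Several other genes of this kind were dimmer. The mas gene, whose product resembles a serine protease and acts in muscle attachment, read 3.36 and 6.01 at 5 h and 14.8 and 24.3 at 8 h, and the difference was 0.76 ± 0.14 (limma adjusted p = 0.0061). The serpin gene Spn100A read 1.46 and 4.09 at 5 h and 12.7 and 16.8 at 8 h, with a difference of 0.71 ± 0.10 (adjusted p = 0.00061). Cyp301a1, a cytochrome P450 known from formation of the adult cuticle, read 2.39 and 2.95 at 5 h and 8.99 and 20.9 at 8 h, with a difference of 0.71 ± 0.14 (adjusted p = 0.0095). In these 3 genes the 5 h and 8 h arrays of line 58 did not overlap, as was so for 48.2% of all genes. That 0 of the other 8 lines had a larger change was a condition for naming them, so nothing is read from it. GATAe, a transcription factor of the endoderm, read 4.29 and 3.06 at 5 h and 11.0 and 22.6 at 8 h, and it was the only called gene of 17 on the endoderm and gut list, with a difference of 0.59 ± 0.13 (adjusted p = 0.027). Without the second 8 h array the difference was 0.43 for Cyp301a1 and 0.34 for GATAe, and neither was called.

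Differences were also called for Neurochondrin (0.98 ± 0.19), Jhbp2 (0.84 ± 0.14) and Ufl1 (0.70 ± 0.16), the ligase for the ubiquitin-like modifier UFM1, with adjusted p = 0.013, 0.0012 and 0.049. Among genes known by number, CG4702 read 4.22 and 18.1 at 5 h and 42.0 and 56.4 at 8 h, with a difference of 1.41 ± 0.26 (limma adjusted p = 0.0079). CG14110 read 5.36 and 21.9 at 5 h and 39.6 and 63.0 at 8 h, with a difference of 1.30 ± 0.21 (adjusted p = 0.0012). For CG10591 the difference was 1.72 ± 0.28 (adjusted p = 0.0012). In each of these 3 the 8 h arrays were higher without overlap and line 83 had the highest 8 h mean among the other lines. Called genes that were picked out after their values were seen included the Spätzle-family ligand gene spz6 (a change of 0.61 in line 58 and -0.06 elsewhere), the neprilysin peptidase gene Nep2 (0.68 and 0.02), the tetraspanin gene lbm (0.70 and 0.10) and mwh (0.59 and 0.03), which limits actin prehairs on wing cells.

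Of genes that move the other way, 1 met the test in line 58 and in the other lines with opposite signs. Sec31, an outer coat protein of the vesicles that leave the endoplasmic reticulum, read 20.6 and 15.8 at 5 h and 32.7 and 44.7 at 8 h in line 58, a rise of 0.67 ± 0.15 (limma adjusted p = 0.015). In the mean of the other lines it fell by 0.17 on the log2 scale (adjusted p = 0.047), with single lines between -0.50 and 0.19, and the difference was 0.84 ± 0.16 (adjusted p = 0.013). At 5 h line 58 ranked 6 of 9 for Sec31 and at 8 h it ranked 1. The fall elsewhere was close to the threshold, and the count of 1 became 0 in 13 of 23 alternative fits, among them those without either 5 h array and without the second 8 h array of line 58.

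The downward differences were Gdap2 and CG44005. Gdap2 read 30.8 and 19.9 at 5 h and 9.32 and 7.65 at 8 h, and it fell by 0.74 in line 58 while the mean change elsewhere was 0.02, a difference of -0.77 ± 0.17 (limma adjusted p = 0.039). CG44005 read 16.1 and 11.4 at 5 h and 1.81 and 0.155 at 8 h, with a difference of -0.77 ± 0.18 (adjusted p = 0.049). In both, the 8 h arrays lay below the 5 h arrays without overlap, as 48.2% of all genes had no overlap in either direction. That 8 of the other 8 lines had a higher change was a condition for naming them, so nothing is read from it. Both adjusted p were close to the threshold. The count of downward differences, 2 in the main fit, was 0 without line 17, line 75 or line Drosophila_145. It was also 0 with a pseudocount of 4 and with the line as the unit, and 4 without line 23, Drosophila_128 or Drosophila_134.

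Of 15 early zygotic genes of cellularisation, line 58 ranked 7 to 9 of the 9 lines at 5 h in 10, against 35.1% of all genes, and 1 to 3 in 2. Z600, an inhibitor of mitosis in the blastoderm, read 34.6 and 50.5 at 5 h and 0.181 and 0.0639 at 8 h, against a median of line means of 133 at 5 h elsewhere. Its 8 h arrays were not above the limit of the negative controls, so the fall in line 58 was at least 24.8-fold, and its change was -1.85 ± 0.28 (limma adjusted p = 0.00035) against -2.51 in the other lines. For slam, which is needed for membrane growth between the nuclei, line 58 read 45.5 and 71.7 at 5 h and 4.42 and 3.71 at 8 h, against a median of 177 elsewhere at 5 h. The halo gene, whose product directs lipid droplet transport, read 18.4 and 32.8 at 5 h and 4.20 and 1.02 at 8 h, and its change of -1.14 ± 0.29 compared with -2.13 elsewhere. Line 58 ranked 7 of 9 at 5 h for Z600, slam, halo and bard alike, and the 5 h and 8 h arrays of line 58 did not overlap for any of them.

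One early gene passed the test of the difference. Bro, which encodes a partner of Runt-family transcription factors, read 2.55 and 3.87 at 5 h and 0.869 and 0.106 at 8 h in line 58, while the line means at 5 h ran from 3.16 to 38.3 elsewhere. Its change in line 58 was -0.22 ± 0.11 and was not called (limma adjusted p = 0.58), the mean change elsewhere was -0.95, and the difference was 0.73 ± 0.11 (adjusted p = 0.0012). CG34214 read 14.3 and 34.7 at 5 h and 1.24 and 0.640 at 8 h, and it changed by -1.21 in line 58 and by -2.10 elsewhere. Small falls were not particular to line 58. Lines 75 and 89 changed by -0.85 and -0.37 for CG34214 and by -0.22 and -0.32 for Bro. The change was lower than that of line 58 in 6 of the other 8 lines for CG34214 and in 7 for Bro. The others of the 4 were CG15876 and 1 probe set with no gene name here. Of 15 genes on the early zygotic list, 5 fell (slam, Z600, bard, halo and Elba3) and 1 rose (rau) in line 58. Over all genes 0.676% fell, and 81 of 6367 detected genes did. The median change of the list was -0.36 against -0.95 in the other lines. The summed intensity of the list was 307 and 430 on the 5 h arrays of line 58, and the 5 h line means of the other lines ranged from 185 to 1670.

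Of the maternal transcripts, smg, bcd and wisp fell in line 58 and were not called in the mean of the other lines. For wisp the fall was not particular to line 58, since line 23 also changed by -1.29. The smg gene, whose product represses and destabilises maternal RNAs, read 94.5 and 88.2 at 5 h and 26.7 and 22.7 at 8 h, a fall of -1.40 ± 0.32 (limma adjusted p = 0.015), while the mean change elsewhere was 0.06. The anterior determinant gene bcd read 43.7 and 34.3 at 5 h and 8.46 and 9.47 at 8 h, a fall of -1.13 ± 0.26 (adjusted p = 0.015), while the mean elsewhere was 0.05. At 5 h line 58 ranked 2 of 9 for smg and 3 for bcd, and at 8 h it ranked last for both. The differences, -1.46 ± 0.34 for smg and -1.19 ± 0.28 for bcd, did not pass the test (adjusted p = 0.063 and 0.062), although all 8 other lines had a higher change than line 58 in both. Over the alternatives the adjusted p ran from 0.015 to 1 for smg and from 0.017 to 1 for bcd, and both passed without line 23, without line Drosophila_128, without line Drosophila_134, with a replicate block and with the brightness covariate. A second, dimmer probe set of bcd changed by -0.27 and was not called.

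Other maternal RNAs had values of the same direction. The RNA helicase gene me31B read 212 and 172 at 5 h and 60.7 and 47.2 at 8 h, and the changes were -1.57 ± 0.25 in line 58 and -0.66 elsewhere. The poly(A) polymerase gene wisp read 70.8 and 57.0 at 5 h and 13.5 and 19.7 at 8 h, and the changes were -1.29 ± 0.28 and -0.28. Single other lines ran from -1.51 (line 23) to 0.35 for me31B and from -1.29 (line 23) to 0.46 for wisp. For me31B and wisp the difference was not called (limma adjusted p = 0.26 and 0.28). Falls were also called in line 58 for mtrm, an inhibitor of Polo kinase (-1.29 ± 0.34), and swa, which localises bcd RNA (-0.89 ± 0.22). Of 34 maternal transcripts 6 fell and 0 rose, where 0.676% of all genes and 81 of 6367 detected genes fell. The median change was -0.23 against -0.07 elsewhere. Line 58 had the lowest 8 h mean of the 9 lines in 10 of the 34, against 12.4% of all genes and 12.2% of detected genes. By limma 0 of the 34 were called for the difference, where 8 were lower and 1 higher at an unadjusted p under 0.05. Over all 18769 probe sets 315 were lower and 493 higher at that threshold. Of 19 germ plasm and germ cell genes 0 were called in line 58, where 1 had an unadjusted p under 0.05 upward and 7 downward. Over all 18769 probe sets 1624 had such a p in line 58, in either direction. The count for germ plasm genes takes the brightest probe set of each gene, and for osk, which assembles germ plasm, this one changed by -1.21 (adjusted p = 0.054) while its other 2 probe sets passed the test with -1.14 and -1.41 (adjusted p = 0.008 and 0.011).

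Of genes for the proteasome, the complex that degrades ubiquitin-tagged proteins, 7 fell in line 58. Prosalpha7 read 96.5 and 85.4 at 5 h and 35.2 and 26.6 at 8 h, a fall of -1.19 ± 0.21 (limma adjusted p = 0.0017) against -0.83 elsewhere. Prosalpha2 fell by 1.05 and Prosbeta5 by 1.01 on the log2 scale. The 7 were of 40 listed genes, 26 of them detected, and 0 rose, where 0.676% of all genes and 81 of 6367 detected genes fell. The differences of the 7 from the other lines ran from -0.36 for Prosalpha7 to 0.08 for Prosalpha2, none of them called. The difference changed sign in other scalings for Prosbeta6 and Rpn6.

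Basement membrane genes encode the sheet of laminin and collagen under epithelia and muscle. The laminin gene LanB2 read 18.2 and 19.9 at 5 h and 47.6 and 65.5 at 8 h, a rise of 1.04 ± 0.19 (limma adjusted p = 0.002) against 0.56 elsewhere, where line means did not exceed 5.02 at 5 h and 31.5 at 8 h. The LanB2 rise was larger in line 83 (1.14) and line Drosophila_134 (1.15) and smaller in 6 of the other lines. The nidogen gene Ndg rose by 0.86 ± 0.19, the papilin gene Ppn by 0.85 ± 0.23 and the laminin gene wb by 0.48 ± 0.12. For Ppn line 83 rose more (1.03) and 7 of the other lines had a lower change. For Ndg and wb 0 of the other lines rose more. Of 15 listed genes, all detected, 4 rose and 0 fell, where 1.3% of all genes and 156 of 6367 detected genes rose. The median change was 0.62 against 0.29, with a median difference per gene of 0.23. Line 58 ranked first of the 9 lines in 9 of the 15 at 5 h and in 8 at 8 h, against 14.6% and 17.1% of detected genes. By limma 0 were called for the difference, where 5 were higher at an unadjusted p under 0.05, the value for Ndg being 0.68 ± 0.20 (adjusted p = 0.29). Over all 18769 probe sets 493 were higher at that unadjusted threshold. Dimmer probe sets of wb changed by -0.08 and -0.04.

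Notch targets and Bearded family genes, which act in neural precursor choice, had a median change of 0.70 in line 58 and of 0.70 elsewhere, while the median difference per gene was -0.14. Ocho rose by 0.80 ± 0.20, edl by 0.79 ± 0.18, E(spl)mbeta-HLH by 0.71 ± 0.14 and E(spl)m3-HLH by 0.60 ± 0.13, with 0 of the 16 called for the difference and 1 each way at an unadjusted p under 0.05. Line 58 ranked first at 5 h in 10 of the 16 and at 8 h in 4, against 14.6% and 17.1% of detected genes. Rises were further called for the segment polarity gene en (0.68 ± 0.15), tsh of the trunk segments (0.81 ± 0.18), the neural gene SoxN (0.87 ± 0.22), the axon guidance gene comm (0.70 ± 0.18) and lmd, a regulator of myoblast fusion (0.47 ± 0.11). For these 5 the difference lay between -0.08 and 0.51 and was not called.

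Pair-rule genes as a class set up the segments. Of the 8 genes listed under that name here, Ten-m rose by 0.63 ± 0.14 (limma adjusted p = 0.015) and ftz-f1 fell in line 58. The median change of the 8 was 0.06 against -0.20 elsewhere, with a median difference per gene of 0.32. By limma 0 of the 8 were called for the difference, where 4 were higher and 1 lower at an unadjusted p under 0.05. Over all 18769 probe sets 493 were higher and 315 lower at that threshold. The segmentation gene eve, listed with them, read 1.89 and 1.12 at 5 h and 1.63 and 1.88 at 8 h, and its 5 h mean was the lowest of the 9 lines.

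Muscle structural genes gave 0 calls among 22 in line 58, and a median change of 0.34 against 0.29. At an unadjusted p under 0.05, 7 of them were higher at 8 h and 0 lower, against 1624 of 18769 probe sets in either direction. TpnC73F, a troponin C, read 2.84 and 11.4 at 5 h and 25.4 and 38.4 at 8 h, just short of the threshold (limma adjusted p = 0.062). Tracheal genes gave 4 rises and 0 falls among 18, where 1.3% of all genes and 156 of 6367 detected genes rose. Of the 4, 3 (verm, serp and kkv) are the chitin genes above. The other was trn, a leucine-rich repeat receptor, with 0.66 ± 0.16. Of 42 lists in all, 26 had a member called in line 58 and 6 had a member called for the difference. The mitochondrial ribosomal protein genes (0 of 69 called, median change -0.04 against -0.15), the respiratory chain genes (0 of 82, -0.02 against -0.13) and the replication licensing genes (0 of 21, -0.14 against 0.03) gave no call by limma in line 58. At an unadjusted p under 0.05, 3 had higher and 3 lower 8 h values among the first, 2 and 3 among the second, and 0 and 1 among the third.

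Among ecdysone response genes 3 of 16 rose (ImpL2, ImpE2 and the nuclear receptor gene Eip78C) and 1 fell (ftz-f1) in line 58. Over all genes 1.3% rose and 0.676% fell, and of 6367 detected genes 156 rose and 81 fell. Eip78C lay near the limit of the negative controls, reading 0.0867 and 0.222 at 5 h and 2.61 and 3.12 at 8 h. Its change was 0.22, and 0 arrays of the other lines were above that limit. ImpL2 read 52.8 and 40.2 at 5 h and 122 and 132 at 8 h. Its change of 1.20 ± 0.27 was smaller than the mean of 1.83 elsewhere, the difference of -0.63 ± 0.29 was not called (limma adjusted p = 1), and at 5 h line 58 had the highest level of the 9 lines. The nuclear receptor gene ftz-f1 read 37.3 and 23.7 at 5 h and 8.17 and 8.50 at 8 h, a fall of -0.92 ± 0.21 (adjusted p = 0.018) against -0.09 elsewhere, with a difference of -0.82 ± 0.23 (adjusted p = 0.20). A second probe set of ftz-f1 changed by -0.39 and was not called. ImpL1, another gene of the ecdysone-induced group, read 6.18 and 45.0 at 5 h and 68.5 and 116 at 8 h, and its change of 1.52 was not called (adjusted p = 0.062).

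**Figure D4:**
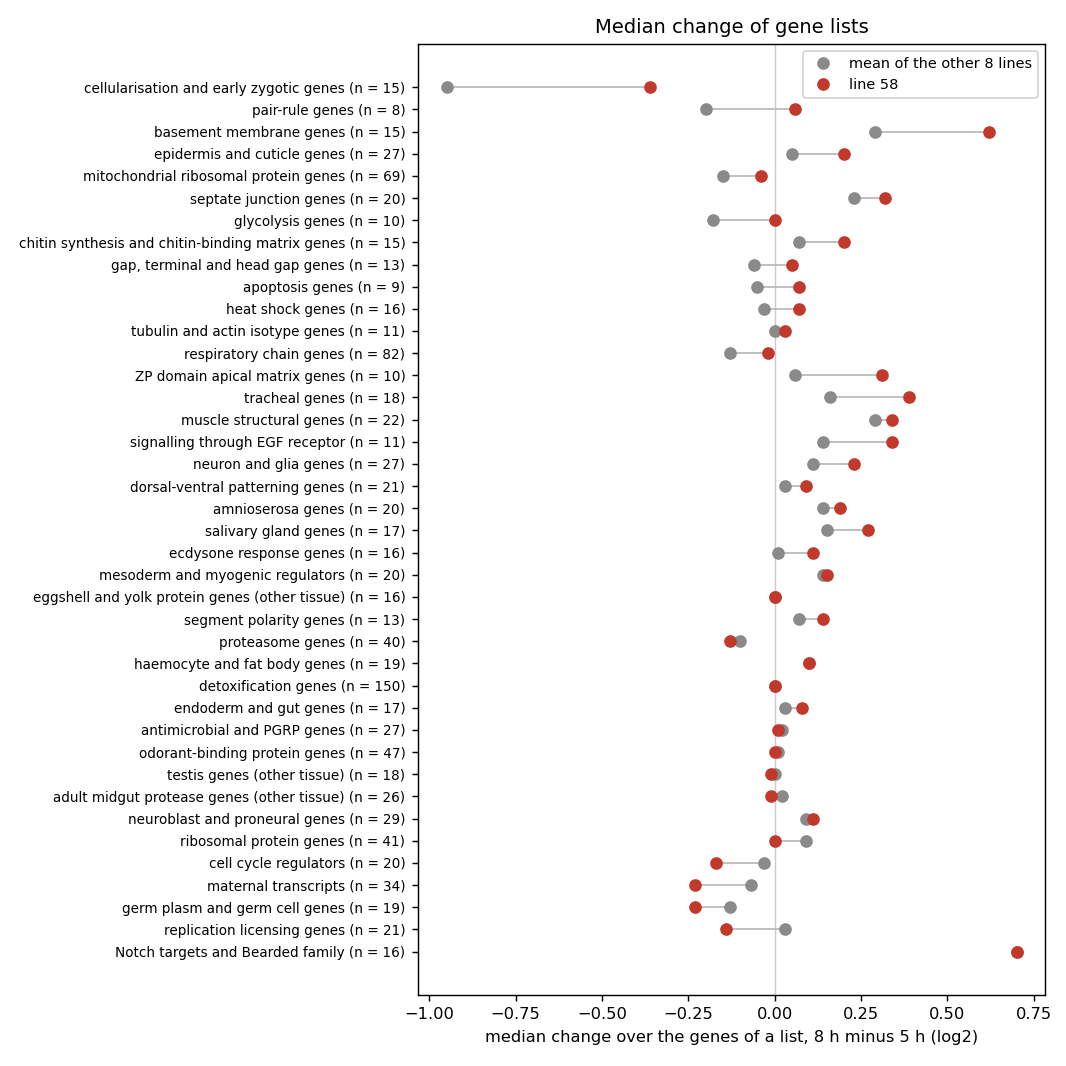
Median change from 5 h to 8 h over the genes of each list with at least 8 genes, on the log2 scale, in line 58 (red) and in the mean of the other 8 lines (grey), ordered by the median difference per gene. By that measure the early zygotic (0.39), pair-rule (0.32) and basement membrane (0.23) lists lie highest, and the Notch and Bearded (-0.14), replication licensing (-0.13), maternal (-0.12) and germ plasm (-0.12) lists lie lowest.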

How the data were processed

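Per the labels' protocols, RNA extracted with TRIzol was turned into biotin-labelled cRNA and hybridised to 1-colour arrays. The deposited values are intensities of 18952 probe sets per array on a linear scale; which software and scaling produced them is not given in the sources used here. Members and the gene lists were chosen with earlier results of these data known.

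The 183 control probe sets were left out. Signal was judged against the 99th percentile of 49 control probe sets taken by name as negative controls, which no source states. A probe set above that limit on at least 18 of the 36 arrays is called measured. Intensities were quantile normalised over the other 18769 probe sets and transformed as log2(intensity + 16), and 91.3% of values lay under that pseudocount. A mean for each of 18 groups of line and time was fitted with limma 3.58.1 in R 4.3.3 (17 residual degrees of freedom, trended prior variance), and 2 contrasts were taken: line 58 at 8 h minus 5 h, and that change minus the mean change of the other 8 lines. P-values were adjusted by the Benjamini-Hochberg method over all 18769 probe sets. In data simulated for the second contrast, 25 of 100 differences of 0.5 and 86 of 100 differences of 1 were called, with 5 of 18569 unchanged probe sets. The changed probe sets of that simulation were all drawn from measured ones, with independent normal noise. It therefore gives no rate of calling for dimmer probe sets and holds no shift shared by a whole array. The number of arrays limits the precision.

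Gene names are those of the platform annotation, brought up to date with the RefSeq gene table; 13647 probe sets had 1 symbol, 402 several and 4720 none. A gene is given by its probe set of highest mean and is detected if above the limit on both line 58 arrays of a time or on at least 8 other arrays of a time. Named genes were detected genes of 4 kinds: up to 12 called differences in each direction, largest first, with the change in line 58 outside the range of the other lines (up to 3 more for CG-numbered genes); the 8 largest called rises and falls in line 58 without overlap of its arrays; up to 8 genes that moved the other way; and called members of the 39 lists; 3 more lists were added after the data were seen.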

Additional observations from a re-analysis of the deposited data

Results flagged for a closer look

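The change from 5 h to 8 h differed between line 58 and the mean of the other 8 lines for 40 probe sets, by limma's test of the difference itself. Among the named genes the difference was largest in CG10591 at 1.72, followed by CG4702 at 1.41, CG14110 at 1.30, mey at 1.19, ImpE2 at 1.14 and tyn at 1.06. Neurochondrin and Myo10A each differed by 0.98, Jhbp2 and Sec31 each by 0.84, mas by 0.76 and Bro by 0.73. Spn100A, neo and Cyp301a1 each differed by 0.71, Ufl1 by 0.70 and GATAe by 0.59. Gdap2 and CG44005 differed by -0.77 each. With 2 arrays a side, single arrays could not be screened for outlying values.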

How the results depend on the processing

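In line 58, 133 probe sets were called on the deposited scale (73 higher, 60 lower) and 160 after median centring (78 and 82), against 290 (194 and 96). There were 153 with a pseudocount of 4, 20 to 148 without 1 line 58 array, and 1 from the 4 arrays of line 58 alone. The difference from the other lines had 1 call with a pseudocount of 4, 73 with 64, 18 over measured probe sets only, 1 to 39 without 1 line 58 array (4 without the first 5 h array), and 9 with the line as the unit; leaving out 1 other line gave 28 to 49 and leaving out the second 8 h array of line Drosophila_134, chosen after seeing the data, gave 40. The count of genes called with opposite signs in line 58 and in the mean of the other lines, 1 in the report, was 0 with a pseudocount of 4, without line 17, 23, 83, Drosophila_134 or Drosophila_145, with the brightness covariate, with the line as the unit, without that Drosophila_134 array, and without either 5 h array or the second 8 h array of line 58. The score change was 0.626 on the deposited scale (rank 6), 0.601 after median centring (rank 6) and 1.17 with the 200 largest rises and falls (rank 4). By score, line 58 ranked 1 at 5 h in each of these settings. At 8 h it ranked 3 after median centring and 2 in the others. The deviations of samples with the same letter had r from -0.389 to 0.279 over lines, which cannot show whether the letters pair them. The main fit did not pair them. With a replicate block 339 probe sets were called in line 58, 34 for the difference and 0 with opposite signs called in both. Among named genes, no called change or difference turned its sign in the fits run, while 11 differences that were not called did so, in 29 values, among them those of slam, bard, Elba3, Prosalpha2, Prosbeta6, Rpn6, edl, comm and en. Of the 19 named differences 12 were called on the deposited scale, 16 with a common 90th percentile, 18 with a pseudocount of 64 and 6 with the line as the unit. Dim signal limits the called differences: 91.3% of values lay under the pseudocount.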
